A study of Mus musculus with 76 samples.

Results

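H3K4me3 peaks that lie away from transcript starts were examined in the developing diencephalon of wild type mouse embryos. Peaks of the 5 wild type H3K4me3 lists were merged, and a region was kept when it lay over 5 kb from the start of every annotated transcript and was called in both E11.5 replicates or in all 3 E17.5 replicates. Of 29914 merged regions, 22901 on annotated chromosomes met the rule on replicates, and 2957 of these (12.9%) lay over 5 kb from a start and are called distal H3K4me3 regions here. The other 19944 lay within 5 kb of a start. A further 7 regions on contigs without annotated transcripts were left out. Another 2080 distal regions were not called in all lists of either stage. The distance rule was set on transcript starts and not on genes, and 1816 of the 2957 regions (61.4%) lay inside an annotated gene.

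The study compared homozygous mice of the C57BL/6J strain in which the enhancer hs754 had been replaced by its human sequence (humanized) with homozygous wild type mice, at 2 stages of embryonic development, E11.5 and E17.5. Chromatin immunoprecipitation and sequencing (ChIP-seq) of H3K4me3, H3K27ac and H3K27me3 gave 2 peak lists of each genotype at E11.5, then 3 at E17.5, CTCF gave 3 of each genotype at E17.5, and RNA-seq gave 4 samples of each genotype and stage. The diencephalons of 6 embryos (E11.5) or 3 embryos (E17.5) from a single litter were pooled for each replicate. Of 76 samples, 52 were analysed here (36 peak lists and 16 RNA samples), and all of the RNA results below rest on the 8 wild type samples unless stated otherwise. The humanized mice carry a single designed allele, and whole tissue was used, so fewer cells of a type and less mark or RNA per cell cannot be told apart. The lot of H3K27ac antibody used is also known from the methods to bind another acetylated histone, H2BK5ac.

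H3K4me3 is the trimethylation of lysine 4 of histone H3, deposited by SET1 and MLL complexes and best known as a mark of active and poised promoters. CXXC-domain proteins in these complexes bind unmethylated CpG dinucleotides, and stretches rich in such dinucleotides (CpG islands) often carry the mark, also away from genes. H3K27ac marks active promoters and enhancers, H3K27me3 is laid down by Polycomb repressive complex 2 at silent developmental genes, and CTCF is a DNA-binding protein that anchors chromatin loops.

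The sequences around the summits of 3 distal regions show how far they differ in CpG content. They are the region with the highest fold enrichment among those called at both stages, at E11.5 only and at E17.5 only. Each runs over 300 bases of the plus strand of GRCm39 (mm39), with every CpG in capitals. The first lies at chr4:46304966-46305265, in an intron of the long non-coding RNA gene Gm12446 with Foxe1 as the nearest protein-coding start, and holds 48 CpGs. The second lies at chrX:160708773-160709072 in an intron of Nhs, nearest to Rai2, and holds 3 CpGs. The third lies at chr11:85886197-85886496 between genes, nearest to Tbx4, and holds 13 CpGs.
Foxe1, called at both stages: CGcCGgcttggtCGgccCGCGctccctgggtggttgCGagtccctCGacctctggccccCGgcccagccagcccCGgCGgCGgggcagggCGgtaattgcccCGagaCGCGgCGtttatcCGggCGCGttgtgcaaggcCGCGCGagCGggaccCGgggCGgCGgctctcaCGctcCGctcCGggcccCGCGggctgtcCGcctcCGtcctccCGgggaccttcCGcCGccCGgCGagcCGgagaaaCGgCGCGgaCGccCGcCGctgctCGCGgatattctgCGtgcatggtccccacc
Rai2, called at E11.5 only: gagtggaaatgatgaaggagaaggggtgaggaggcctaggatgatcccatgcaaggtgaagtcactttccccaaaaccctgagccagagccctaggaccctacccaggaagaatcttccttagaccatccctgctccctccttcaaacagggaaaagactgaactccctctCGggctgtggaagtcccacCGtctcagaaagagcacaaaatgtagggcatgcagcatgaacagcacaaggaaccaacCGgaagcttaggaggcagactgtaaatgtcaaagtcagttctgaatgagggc
Tbx4, called at E17.5 only: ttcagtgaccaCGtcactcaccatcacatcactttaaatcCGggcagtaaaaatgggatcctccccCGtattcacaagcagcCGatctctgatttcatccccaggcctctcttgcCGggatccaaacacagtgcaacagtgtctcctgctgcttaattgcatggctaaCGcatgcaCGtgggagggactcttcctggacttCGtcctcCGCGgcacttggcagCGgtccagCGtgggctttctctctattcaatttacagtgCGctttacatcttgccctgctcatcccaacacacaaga
The GC content of these windows was 77.3%, 52% and 52.7% in the order printed.

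Distal regions were narrow and weakly enriched beside those near starts. The fold enrichment is column 7 of the peak lists, the ratio of the reads at a peak to the local background, and each region was given the median over the lists of the stages at which it was called. This value had a median of 5.83 over the 2957 distal regions (interquartile range 4.43 to 9.36, highest 54.0) and of 38.1 over the 19944 regions within 5 kb of a start. The merged width had a median of 739 bp (interquartile range 540 to 1042 bp, from 223 to 8288 bp) against 2083 bp. A fold enrichment over 20 was reached by 225 distal regions (7.61%) and by 65.4% of regions near starts, and a width over 2 kb by 99 (3.35%) and 52.3%. The regions were chosen by their wild type H3K4me3 calls, so these wild type values are a description without a test. In the 5 humanized lists, which the rule did not use, the median peak width at distal regions was 571 bp against 1685 bp near starts, a mean difference within a list of -1114 bp (SD 31.7, lower in 5 of 5 lists). The median log2 fold enrichment was 2.68 against 5.10 in the same lists, a difference of -2.42 (SD 0.08). With 5 lists an exact sign-flip permutation test cannot go below p = 0.0625, which both differences reached (two-sided, adjusted p = 0.0660 over 19 tests).

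**Figure D1:**
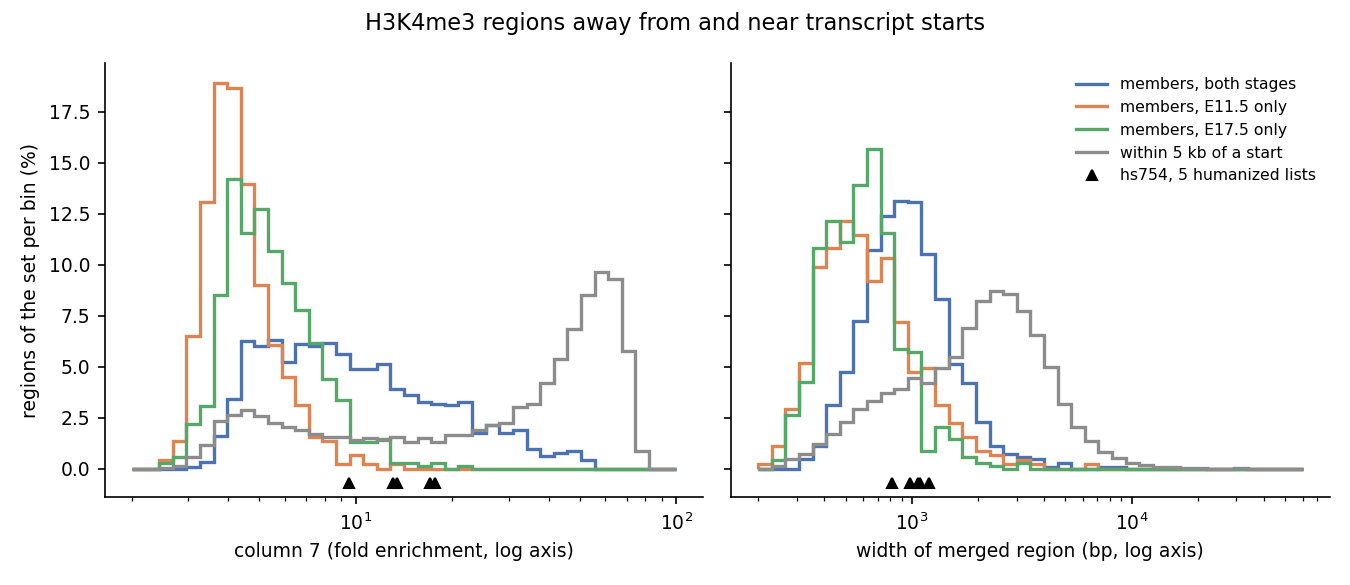
Fold enrichment (column 7, left) and width (bp, right) of merged wild type H3K4me3 regions on log axes, as the percentage of each set per bin; the lines are distal regions called at both stages, at E11.5 only and at E17.5 only, and regions within 5 kb of a start. Triangles mark the single hs754 peak of each of the 5 humanized lists; the distal sets lie to the left of most regions near starts, whose median fold enrichment was 38.1.

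By stage, the distal regions fell into 4 classes. A set of 1406 (47.5%) was called in all 5 wild type lists and is called both-stage here. Another 444 (15.0%) were called in both E11.5 lists and no E17.5 list (E11.5-only), and 682 (23.1%) in all 3 E17.5 lists and no E11.5 list (E17.5-only). The remaining 425 (14.4%) were uneven between the lists of a stage. Of the regions near starts, 84.3% were called in all 5 lists. Both-stage distal regions had a median fold enrichment of 9.05 and a median width of 935.5 bp, E11.5-only regions 4.18 and 599.5 bp, and E17.5-only regions 5.23 and 589.5 bp. Only 2 of the 225 distal regions over 20 were not both-stage: the E17.5-only Tbx4 region and an uneven region.

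The regions just outside the rule on replicates had lower median fold enrichments than those inside it. The 115 regions called in 2 of 2 E11.5 and 1 of 3 E17.5 lists had a median fold enrichment of 4.26, and the 206 called in 1 of 2 and 3 of 3 had 5.20. Just outside, the 397 regions with 2 of 3 E17.5 lists and no E11.5 list had a median of 3.99, the 803 with 1 of 2 E11.5 lists only had 3.56, the 718 with 1 of 3 E17.5 lists only had 3.65, the 77 with 1 of 2 and 2 of 3 had 3.91, and the 85 with 1 of 2 and 1 of 3 had 3.84. On the distance, the regions just over 5 kb were 5002 bp from a start of Prtg, 5006 bp from one of Gm49613 and 5010 bp from one of Tor2a. Their fold enrichments were 5.69, 7.05 and 7.55. The regions just under 5 kb were 4999 bp from Spmip9, 4995 bp from Gm12125 and 4987 bp from Nenf, with 7.33, 6.57 and 19.9. The nearest protein-coding start was Olig2, 52219 bp away, for the Gm49613 region and Wwc1, 20237 bp away, for the Gm12125 region. The distance of the distal regions to the nearest start had a median of 12769 bp and a maximum of 330235 bp. A distance of 5 to 10 kb was found for 1091 of them (36.9%), 10 to 25 kb for 1208 (40.9%), 25 to 50 kb for 453 (15.3%), 50 to 100 kb for 158 and over 100 kb for 47 (1.59%).

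Protein-coding genes held 48.1% of the distal regions and 38.6% lay outside any gene. The share in protein-coding genes was 71.2% for E11.5-only regions, 41.8% for both-stage and 44.3% for E17.5-only regions. Exons of any gene were touched by 16.8%. A neighbour within 10 kb was found for 469 regions (15.9%), so not all of them are separate places in the genome.

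The both-stage regions with the highest fold enrichment included regions near Foxe1, Haao, 9230112D13Rik, Pogz and Slc1a3. The Foxe1 region (chr4:46304155-46305978, 1824 bp) had fold enrichments of 54.0 and 27.2 at E11.5, then of 65.9, 37.9 and 69.3 at E17.5. Foxe1 encodes a forkhead transcription factor of the thyroid and palate and starts 37631 bp from the region. The Slc1a3 region (chr15:8597816-8599606) had 28.3 and 35.3 at E11.5, then 51.7, 55.7 and 55.9 at E17.5, but in the humanized lists, which the choice did not use, its log2 change did not pass the test (0.21, SE 0.22, limma adjusted p = 0.573). Slc1a3 encodes the glutamate transporter GLAST of radial glia and astrocytes, and starts 73125 bp from the region. H3K27ac was called there in 0 of 2 wild type lists at E11.5 and in 3 of 3 at E17.5, and H3K27me3 in 2 of 2 and 3 of 3. The Haao region (chr17:84168625-84170937) had 27.05 and 23.4, then 60.8, 60.4 and 53.6, and the Pogz region (chr3:94728094-94730036) had 46.0 and 41.4, then 52.6, 52.8 and 52.1. In the humanized lists neither passed the test between the stages, with log2 changes of -0.29 (SE 0.21, adjusted p = 0.424) and -0.19 (SE 0.19, adjusted p = 0.563) in limma. The region in an intron of Ldb3, nearest to 9230112D13Rik (chr14:34270149-34271940), had 49.8 and 53.0, then 38.4, 68.9 and 61.2, so that the stages overlapped. The sixth region by this rule lay near Trim27 on chromosome 13 (45.5 and 40.3, then 56.5, 55.2 and 53.8).

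The E11.5-only regions with the highest values were weaker. The Rai2 region in the Nhs intron (chrX:160707955-160709777) had fold enrichments of 13.4 and 13.5, and 15.3 and 15.7 in the humanized E11.5 lists. H3K27ac was higher at E11.5 there, with 12.4 and 12.6 at E11.5, then 4.44, 5.61 and 3.30 at E17.5 in wild type (log2 change over both genotypes, relative to the median region, -2.51, SE 0.21, limma adjusted p = 4.78e-10; -1.65 without centring). Nhs encodes an actin regulator, and Rai2 starts 207517 bp away. A region 183188 bp from the start of Nr2f2 (chr7:69815436-69821797) had 10.7 and 9.72 and was 6362 bp wide. Nr2f2 encodes the nuclear receptor COUP-TFII. Its H3K27ac values of 15.95 and 9.45 at E11.5 overlapped with 8.29, 11.4 and 15.6 at E17.5 in wild type, while the centred fit over both genotypes gave a log2 change of -0.84 (SE 0.22, adjusted p = 0.00231), which was 0.00976 without centring. The others were regions near Skor2, Syt7, Cyp4f16 and Zfp184, with medians of 11.3, 10.1, 9.69 and 9.35. None of these 4 had H3K27ac in any wild type list. H3K27me3 was called in every wild type list of both stages at the Skor2, Syt7, Zfp184 and Nr2f2 regions. The Rai2 region had it in both E11.5 lists and 1 E17.5 list, and the Cyp4f16 region in none. Over the whole E11.5-only class the mean share with H3K27me3 was 15.7% in the 4 E11.5 lists of both genotypes.

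The E17.5-only regions with the highest values lay near Tbx4 (chr11:85885721-85886923; 22.1, 22.1 and 16.8), Adgrl2 (chr3:148896328-148897206; 17.3, 18.5 and 19.1), Gm61616 on chromosome X (18.002, 18.23 and 16.01), Shank2, Trank1 and Tanc2. The Tbx4 and Adgrl2 regions lay 98074 and 200099 bp from the starts of those genes. At each of them H3K27ac was called in 0 of 2 wild type lists at E11.5 and in 1 of 3 at E17.5 (4.20 and 3.50). At the Gm61616 region it was called in 0 of 2 and 3 of 3 (8.94, 7.70 and 8.22). H3K27me3 was called at the Tbx4 region in 2 of 2 and 3 of 3 wild type lists, and at the other regions of this group in none. Shank2 encodes a scaffold protein of excitatory synapses, and the region in its intron (chr7:143686183-143687862) had fold enrichments of 16.2, 20.6 and 14.2. H3K27ac was called there in 0 of 2 wild type lists at E11.5, then reached 36.4, 26.8 and 32.4 at E17.5. The Trank1 region (chr9:111180412-111183742, 3331 bp, over an exon) had 15.4, 14.6 and 9.56, with H3K27ac absent from both wild type E11.5 lists and at 18.9, 29.0 and 21.8 at E17.5. Tanc2, another synaptic scaffold protein, held a region in an intron (chr11:105622327-105624650) with 12.7, 14.6 and 16.1, where H3K27ac was 3.96 and 3.43 at E11.5, then 18.2, 16.9 and 17.4 at E17.5. The Gm61616 region was called in both humanized E11.5 lists (4.03 and 3.82) and rose at E17.5 in that genotype (21.5, 16.2 and 15.5; log2 change 1.88, SE 0.20, limma adjusted p = 0.00303, a call lost without the first humanized E11.5 list).

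The widest region covered 8288 bp over an exon of Zc3h12c (chr9:52053107-52061394), which encodes a CCCH zinc finger protein. Its wild type fold enrichments were 35.5 and 38.6 at E11.5, then 12.9, 15.7 and 16.8 at E17.5, with no overlap between the stages. In the humanized lists, which the choice did not use, it fell (34.2 and 36.2, then 18.8, 8.33 and 15.1; log2 change -1.69, SE 0.31, limma adjusted p = 0.0172, also lost without that list). H3K27ac also fell, from 15.4 and 24.0 to 8.21, 10.9 and 12.1 in wild type. Over both genotypes its log2 change was -1.94 relative to the median region (SE 0.22, limma adjusted p = 4.02e-08) and -1.09 without centring. The next widest lay in an intron of Ptprn2, nearest to Rapgef5 (7671 bp), with H3K27ac of 20.3 and 12.1, then 15.8, 12.7 and 13.8. Its log2 change of H3K27ac relative to the median region was -1.17 (SE 0.20, adjusted p = 2.35e-05) and -0.32 without centring, and the wild type values overlapped.

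CpG islands were found in distal regions more often than at distal H3K27ac regions and less often than near starts, and more often in both-stage regions than in those called at a single stage. A CpG island was taken as a run of 200 bp or more in which GC made up 50% or more and the observed CpGs were 0.6 times the expected number or more. The flanks of each region were searched too, and a run counted when at least 1 bp of it lay in the region. Repeats were not masked, whereas the paper used repeat-masked genomes. Such a run overlapped 1497 distal regions (50.6%) and 84.6% of regions near starts. It overlapped 9.10% of the 18799 distal regions that carried H3K27ac by the same rule on replicates but no H3K4me3. The median widths of these sets were 739, 2083 and 1108 bp, and the part of width in the shares was not tested. The share was 67.4% for both-stage, 24.8% for E11.5-only, 34.3% for E17.5-only and 48.2% for uneven distal regions. Near starts it was 32.1% for E11.5-only and 38.2% for E17.5-only regions, so the low share of regions called at a single stage was found near starts too. The CpG ratio of the 500 bp around the summit had a median of 0.444 in distal regions, 0.699 near starts and 0.211 in distal H3K27ac regions without H3K4me3. The GC content had medians of 50.8%, 62.2% and 47.4%. Distal regions with a CpG island had a median width of 815 bp and a fold enrichment of 7.44, against 674.5 bp and 5.04 for the 1460 without. Of the 225 regions over 20, 204 held a CpG island and 21 did not.

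**Figure D2:**
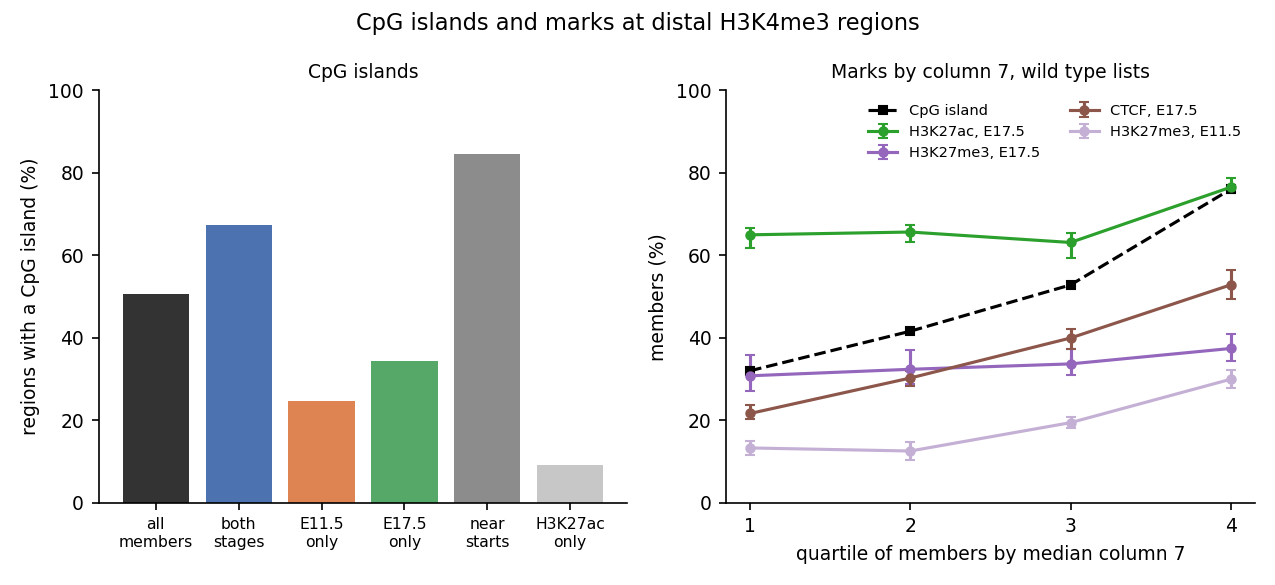
Left, percentage of regions with a CpG island for all distal regions, 3 of their stage classes, regions near starts and distal H3K27ac regions without H3K4me3. Right, percentage of distal regions with a CpG island or with a peak of another mark in the wild type lists, by quartile of fold enrichment (points are means over lists, bars their lowest and highest); CpG islands were found in 32.03% of quartile 1 and 76.05% of quartile 4.

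Among the distal regions, the quartile of fold enrichment (bounds 4.43, 5.83 and 9.36) went with CpG islands and CTCF. From the lowest to the highest quartile, CpG islands were found in 32.03%, 41.6%, 52.85% and 76.05% of regions, and CTCF, as the mean of the 3 wild type lists, in 21.7%, 30.3%, 39.97% and 52.9%. H3K27me3 was found in 13.3%, 12.6%, 19.4% and 30.0% at E11.5, and in 30.8%, 32.4%, 33.7% and 37.4% at E17.5, where the quartiles lay closer together. H3K27ac was found in 47.4%, 40.5%, 34.3% and 43.9% at E11.5, and in 65.0%, 65.7%, 63.1% and 76.5% at E17.5. The median width rose over the same quartiles from 565 to 1095 bp. Stage classes shifted as well. Both-stage regions made up 12.6%, 33.2%, 53.1% and 91.3% of the quartiles, E11.5-only regions 36.2%, 16.2%, 6.91% and 0.68%, and E17.5-only regions 28.2%, 30.4%, 28.0% and 5.55%. In wild type the median fold enrichment at distal regions was 5.59 and 5.92 in the E11.5 lists, then 6.84, 7.06 and 6.72 at E17.5. The parts of width and stage class in these shares were not tested. The mean share of H3K27me3 at E11.5 was 21.9% for regions 5 to 10 kb from a start, 19.7% for 10 to 25 kb, 15.2% for 25 to 50 kb and 5.37% for the 205 regions over 50 kb away. At E17.5 these shares were 34.5%, 35.5%, 30.3% and 24.7%, a smaller drop. The 406 regions over exons of protein-coding genes held a CpG island in 69.2% and H3K27me3 at E11.5 in 33.6%. The 1016 in introns of such genes held a CpG island in 38.7%, H3K27me3 at E11.5 in 12.2% and H3K27ac in 54.3% at E11.5, then 77.6% at E17.5.

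Distal H3K4me3 regions overlapped peaks of H3K27ac, H3K27me3 and CTCF less often than regions near starts. Shares were taken as the percentage of regions with at least 1 bp of a peak in a list, outside chromosome 13, whose coordinates are shifted in the humanized genome. H3K27ac was found at 43.0% and 40.04% of distal regions in the wild type E11.5 lists and at 43.8% and 43.3% in the humanized ones. At E17.5 the shares were 65.3%, 68.5% and 69.8% in wild type and 65.4%, 64.7% and 53.1% in humanized lists. The shares of the E17.5 lists all lay above those of the E11.5 lists, and the third humanized E17.5 list, also the shortest with 47132 peaks, lay below the other 5 of that stage. Over the 10 lists the mean share was 55.7% against 73.1% near starts, a difference of -17.4 percentage points (SD 4.32, lower in 10 of 10 lists, exact sign-flip permutation p = 0.00195, the smallest possible, adjusted p = 0.00696).

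H3K27me3 was found at 20.7% and 16.9% of distal regions in the wild type E11.5 lists, and at 37.5%, 30.0% and 32.3% at E17.5. The humanized lists gave 22.6% and 23.9%, then 30.8%, 30.8% and 26.9%. The mean difference from regions near starts was -6.56 points (27.2% against 33.8%, SD 5.83, lower in 9 of 10 lists, exact p = 0.00391, adjusted p = 0.00696). Most of it came from E11.5, with -13.2 points over 4 lists (21.01% against 34.2%), while the 6 E17.5 lists gave -2.13 points (31.4% against 33.5%, SD 1.44, lower in 5 of 6). CTCF at E17.5 was found at 38.8%, 34.4% and 36.4% in wild type and 33.7%, 33.0% and 34.5% in humanized lists, a difference of -17.6 points from regions near starts (35.1% against 52.8%, SD 2.396, lower in 6 of 6 lists, exact p = 0.0312, the smallest possible, adjusted p = 0.0371). These 3 differences depended on the overlap required. When a peak had to cover at least 50% of the region, the H3K27ac difference turned to +5.59 points (45.7% against 40.1%) and the CTCF difference to +11.7 points. In windows of 500 bp around the summit, which were added after seeing the data, they were -17.2 and -7.04 points, and the H3K27me3 difference was -3.42 points (exact p = 0.102).

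**Figure D3:**
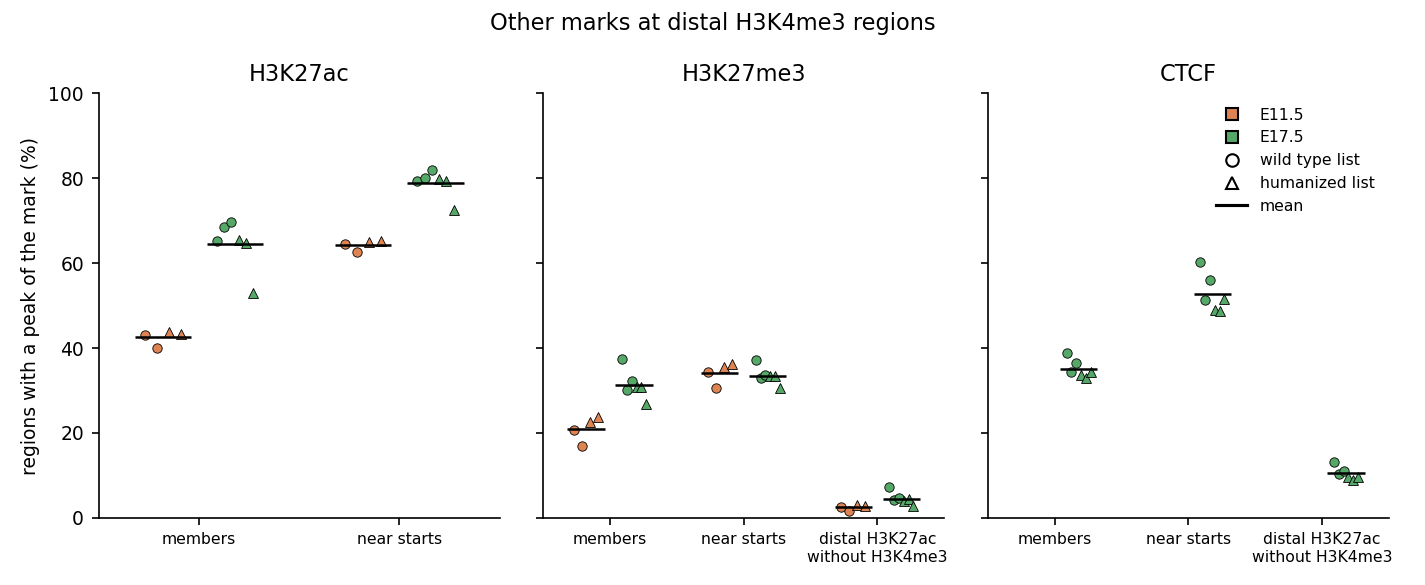
Percentage of regions with a peak of H3K27ac, H3K27me3 or CTCF, 1 point per list (circles wild type, triangles humanized, colour by stage, bars the mean), for distal regions, regions near starts and distal H3K27ac regions without H3K4me3. The last set averaged 3.71% for H3K27me3 and 10.4% for CTCF, below every point of the distal H3K4me3 regions.

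Against distal H3K27ac regions without H3K4me3, the distal H3K4me3 regions carried H3K27me3 and CTCF more often. The comparison set was chosen for H3K27ac, so only the other marks were compared, in tests added after seeing the data. H3K27me3 lies on the same residue as H3K27ac, and the part of that choice in its low share in that set was not tested. H3K27me3 was found at 27.2% against 3.71%, a difference of 23.5 points (SD 4.78, higher in 10 of 10 lists, exact p = 0.00195, adjusted p = 0.00696). With peaks at a -log10 q of at least 5 this H3K27me3 difference was 12.2 points (12.9% against 0.764%). Among the 1961 distal H3K4me3 regions that carried H3K27ac by the same rule on replicates, the share was 19.3%, a difference of 15.6 points (SD 3.05, higher in 10 of 10 lists, exact p = 0.00195). CTCF was found at 35.1% against 10.4%, a difference of 24.7 points (SD 0.74, higher in 6 of 6 lists, exact p = 0.0312, adjusted p = 0.0371), and at 34.9% of the distal H3K4me3 regions with H3K27ac. Where a distal H3K4me3 region had H3K27ac, that peak was broader: in the first wild type E11.5 list such peaks had a median width of 809.5 bp against 491 bp at regions without H3K4me3. The median fold enrichment of H3K27ac was 6.32 against 4.32 in that list, and 7.35 to 7.56 against 4.67 to 5.05 in the 3 wild type E17.5 lists.

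The CpG island also divided the other marks at distal regions. H3K27me3 was found at 40.5% of regions with a CpG island and 13.5% of those without, a difference of 26.98 points (SD 1.53, higher in 10 of 10 lists). H3K27ac ran the other way, at 49.7% against 61.9% (-12.3 points, SD 1.01, lower in 10 of 10 lists). CTCF was found at 41.01% against 29.1% (+11.9 points, SD 1.05, higher in 6 of 6 lists). The H3K27me3 difference was 17.6 points with peaks at a -log10 q of at least 5, and the CTCF difference was 5.01 points when a peak had to cover 50% of the region. The exact p was 0.00195 for both histone marks (adjusted p = 0.00696) and 0.0312 for CTCF (adjusted p = 0.0371), each the smallest possible, and these tests too were added after seeing the data.

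Counted over all wild type lists of a stage, 32.3% of the 2957 regions carried H3K27ac without H3K27me3 at E11.5, 12.1% H3K27me3 without H3K27ac, 2.98% both and 37.9% neither, and 14.7% differed between replicates. At E17.5 the shares were 44.2%, 13.3%, 10.4%, 9.30% and 22.8%. Regions near starts with neither mark made up 4.52% at E17.5. With neither histone mark at E17.5 and no CTCF in the wild type lists there were 163 distal regions (5.51%). Both marks together at E17.5 were found at 14.4% of regions with a CpG island and 6.30% of those without.

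H3K27ac moved with the stage at which H3K4me3 was called. At E11.5-only regions it was found at 68.1% and 64.3% in the wild type E11.5 lists and at 56.9%, 60% and 59.3% at E17.5, and the humanized lists gave 68.3% and 70.2%, then 55.7%, 56.0% and 46.4%. The mean fell by 12.02 points, from 67.7% to 55.7% (exact permutation p = 0.00476, the smallest possible, adjusted p = 0.00696). At E17.5-only regions it was found at 18.3% and 14.4%, then 64.9%, 69.9% and 71.1% in wild type, and at 17.2% and 17.2%, then 65.2%, 63.4% and 51.1% in humanized lists. The mean rose by 47.5 points, from 16.8% to 64.3% (exact p = 0.00476, adjusted p = 0.00696). In both classes the lists of the stages did not overlap.

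The E17.5 lists held 47132 to 77419 H3K27ac peaks and the E11.5 lists 32418 to 37311, and over all distal regions the share rose by 21.9 points (42.5% to 64.5%, exact p = 0.00476). The classes were therefore also compared within each list. The share of E11.5-only regions exceeded that of E17.5-only regions by 50.9 points at E11.5 and fell short of it by 8.55 points at E17.5, a change of -59.5 points (exact p = 0.00476, adjusted p = 0.00696, test added after seeing the data). When every list was shortened to an equal number of peaks, the stage differences were -22.8 points for E11.5-only and +30.9 points for E17.5-only regions, and over all distal regions the rise was 8.04 points (40.9% to 48.9%).

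H3K27me3 rose with stage at both classes, and more at E11.5-only regions. There it was found at 14.8% and 13.3% in the wild type E11.5 lists and 43.1%, 32.9% and 36.2% at E17.5, with humanized values of 17.1% and 17.6%, then 33.6%, 33.6% and 30.0% (mean 15.7% to 34.9%, +19.2 points, exact p = 0.00476, adjusted p = 0.00696). At E17.5-only regions it was found at 8.62% and 14.6% on average (+6.00 points, exact p = 0.00476), and the difference was +0.53 points (exact p = 0.476) when peaks needed a -log10 q of at least 5. The gap between the classes widened by 13.2 points (7.096 to 20.3, exact p = 0.00476). With peaks at a -log10 q of at least 5, the rise at E11.5-only regions was 5.16 points and the widening 4.63 points (exact p = 0.00476 for both). With an equal number of peaks per list the rises were 12.7 points at E11.5-only and 2.28 points at E17.5-only regions. Over all distal regions the rise was 10.4 points, or 2.95 points with the stricter peaks and 5.99 points with equal numbers. H3K27me3 lists also grew, from 13850 to 21295 peaks at E11.5 to 19193 to 43700 at E17.5. Near starts the mean share was 34.2% at E11.5, then 33.5% at E17.5. CTCF, measured at E17.5, was found at 46.4% of both-stage, 27.5% of E17.5-only and 13.2% of E11.5-only regions.

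**Figure D4:**
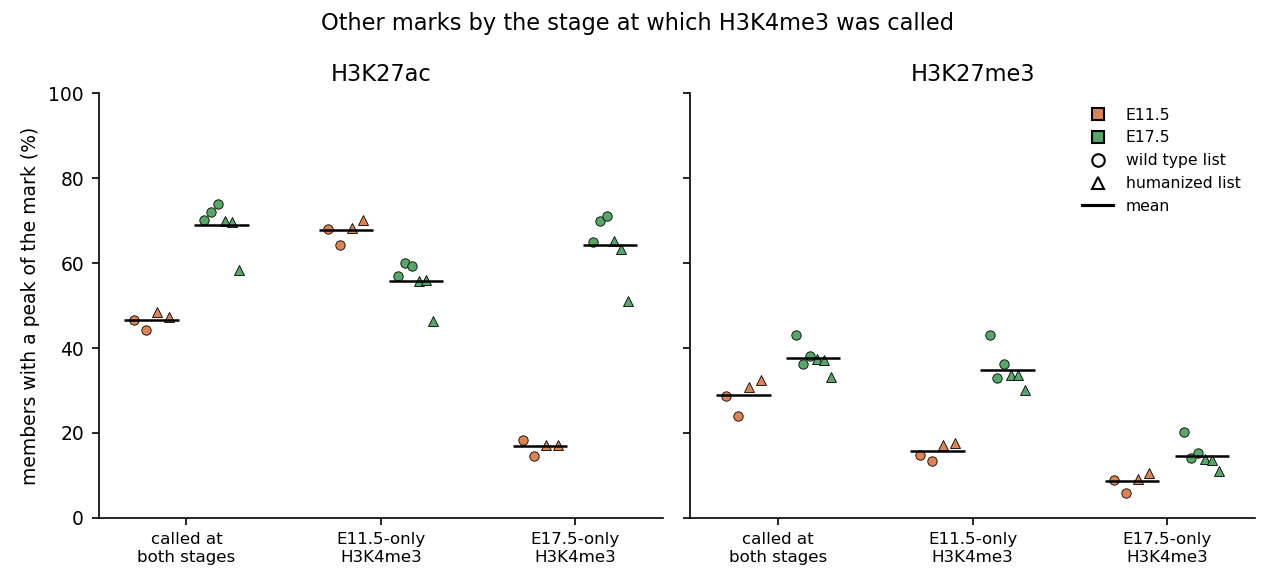
Percentage of distal regions with H3K27ac (left) or H3K27me3 (right) in each list, for regions with H3K4me3 called at both stages, at E11.5 only or at E17.5 only (circles wild type, triangles humanized, colour by stage, bars the mean). H3K27ac fell from 67.7% to 55.7% at E11.5-only regions and rose from 16.8% to 64.3% at E17.5-only regions.

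The level of H3K27ac was also followed at regions with an H3K27ac peak in all 10 lists. The fold enrichment was fitted with limma over 12065 such H3K4me3 regions, distal or near starts, with each list centred on its median. Of these, 18.9% were higher and 29.5% lower at E17.5 at an adjusted p under 0.05, 48.4% in all. Among the 756 distal regions tested, 125 (16.5%) were higher and 350 (46.3%) lower, with a median log2 change of -0.43 against -0.12 over all regions. Of 159 E11.5-only regions, 9 were higher and 114 lower (71.7%; median -1.002). Of 48 E17.5-only regions, 17 were higher and 9 lower (median 0.07). Of 440 both-stage regions, 86 were higher and 164 lower (median -0.27). The requirement of a peak in all 10 lists leaves out regions that lost or gained the mark. Without centring the median of all regions was 0.73 and the split changed to 7325 higher and 680 lower. The distal regions then gave 333 higher and 127 lower, the E11.5-only regions 33 higher and 49 lower (median -0.15), and the E17.5-only regions 34 higher and 2 lower. The both-stage regions turned to 226 higher and 55 lower (median 0.58), and quantile normalization gave them a median of -0.05.

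Nearly all distal regions were called in at least 1 humanized list. Of the 2817 outside chromosome 13, 1248 (44.3%) were called in all 5 humanized lists and 65 (2.31%) in none. Of both-stage regions, 87.1% were called in all 5. Of E11.5-only regions, 67.1% were called in both humanized E11.5 lists, none in all 3 humanized E17.5 lists and 10.2% in no humanized list. Of E17.5-only regions, 65.2% were called in all 3 humanized E17.5 lists and 2.80% in none. The mean share with H3K27ac was 54.1% in humanized and 57.3% in wild type lists, a stage-adjusted difference of -2.38 points (exact permutation within stage, p = 0.533). Leaving out a list in turn gave -3.46 to -0.38 points, the last without the third humanized E17.5 list. The E17.5 lists alone gave -6.78 points, and equal numbers of peaks -1.01.

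The level of H3K4me3 was compared between the stages in the humanized lists, over 18016 regions called in all 5. In limma 8.81% of these changed, 4.68% higher and 4.12% lower at E17.5. Of the 1257 distal regions tested, 83 (6.60%) were higher and 78 (6.21%) lower, with a median log2 change of -0.00 against -0.08 over all regions. Of these, 1169 were both-stage regions, 76 higher and 73 lower. Only 7 E11.5-only and 10 E17.5-only regions could be tested, with 2 lower and 2 higher. Without the first humanized E11.5 list, 0 of 18367 regions passed limma's adjusted p, with 3367 at an unadjusted p under 0.05, and 0 of 1346 distal regions, with 351 unadjusted. Without the others in turn the distal counts were 20 to 29 higher and 6 to 31 lower. Without centring they were 210 and 45.

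The humanized hs754 had an H3K4me3 peak in every humanized list. Its fold enrichments were 9.54 and 13.03 at E11.5, then 17.1, 13.4 and 17.6 at E17.5, with widths of 1094, 1197, 978, 812 and 1063 bp. In wild type, 1 peak of 303 bp with a value of 2.92 was called in the first E11.5 list and none in the other 4. Each humanized value lay above 74.6%, 83.4%, 83.2%, 80.4% and 86.6% of the distal regions called in that list, and above 20.7% to 27.2% of the regions near starts. Its peaks were wider than 82.2%, 88.0%, 82.8%, 75.4% and 86.6% of those at distal regions. The mouse sequence lies 11432 bp from the nearest annotated start, of Gm60533, and 324226 bp from Irx1, so it would meet the distance rule. In the terms used above, the humanized sequence was called at both stages. H3K27ac peaks overlapped hs754 in all 10 lists. The highest fold enrichments were 3.12 and 4.86 in wild type and 8.35 and 5.68 in humanized lists at E11.5. At E17.5 they were 5.06, 9.02 and 5.95 against 5.66, 5.76 and 5.97. The E17.5 lists held 3, 4 and 3 peaks there in wild type and 2, 3 and 2 in humanized mice, so these values may come from different places in the locus. The paper tested the peak over the human CpG island. It reports nominally higher H3K27ac in humanized mice at both stages, which did not pass genome-wide correction. H3K27me3 was called there in all 10 lists, in domains of 21674 to 28911 bp at E17.5, and CTCF in all 6. The genotypes were not compared further here.

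The nearest protein-coding start was taken as a label for each distal region, without implying that the gene is its target. The 2957 regions were nearest to 2129 genes, of which 1631 had a single region, 68 had at least 4 and 19 at least 6. Of all protein-coding genes, 9.79% were nearest to a distal region. Of 58 forebrain transcription factors, 34 (58.6%) were, with 75 regions, of which 34 were both-stage, 16 E11.5-only and 13 E17.5-only. Of 30 genes of neuronal maturation and the synapse, 13 were, with 22 regions, 11 of them E17.5-only and 1 E11.5-only. Of 19 glial genes, 7 were, with 16 regions, and of 13 genes of progenitors and fetal timing, 5 were, with 10 regions. Of 17 markers of other cell types (endothelium, microglia, blood, meninges and choroid plexus), 3 were: Col1a1, Col1a2 and Dcn. The space around a gene was not taken into account in these counts.

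Between E11.5 and E17.5, 10356 of 18583 genes changed in wild type RNA (edgeR, adjusted p under 0.05), 55.7% in all, 29.0% higher and 26.7% lower at E17.5. Wild type libraries held 18124370 to 24272569 reads on genes. The first wild type E17.5 library stood apart: its Spearman correlation with the others of its group was 0.929 to 0.939, against 0.990 to 0.993 among those. Without it 13994 genes were called, and the counts of gene classes and lists below are also given without it. Tcf7l2, a transcription factor of the thalamus and habenula, stood at 1324, 899, 1086 and 884 CPM (counts scaled to a common library size) at E11.5, then 1357, 1258, 1165 and 1029 at E17.5. It is 1 of 8 tissue markers, of which 7 were tested, 2 higher and 3 lower, with the same counts when the library that stood apart was left out. Of the 4 near distal regions, Otx2, Barhl2 and Irx1, transcription factors of the early forebrain and midbrain, fell by 3.09, 2.96 and 1.86 on the log2 scale, and Tcf7l2 did not pass the test (0.20, adjusted p = 0.385). Lhx9, a factor of thalamic neurons, rose by 1.02 and Gbx2 did not pass the test (0.68, adjusted p = 0.204). Without the library that stood apart these values were 1.23 for Lhx9 and 0.35 for Gbx2 (adjusted p = 0.4215). Markers of other cell types summed to 3245, 4053, 2341 and 2918 CPM at E11.5, then 1944, 1089, 1030 and 1019 CPM at E17.5, and 5 of the 17 rose and 5 fell (5 and 9 without that library). Per kilobase the highest were the globins Hbb-y at E11.5 (1914 CPM per kb), which was at 0 in 2 of 4 E17.5 libraries, and Hbb-bs at E17.5 (217 CPM per kb). The part of these cells in the results below was not tested.

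Genes nearest to E11.5-only regions were more often lower than higher at E17.5, and genes nearest to E17.5-only regions more often higher than lower. The lists are described by their counts without a test. Of 308 tested genes nearest to E11.5-only regions, 85 (27.6%) were higher and 120 (38.96%) lower at E17.5, with a median log2 change of -0.27 against -0.01 over all genes. Of 519 nearest to E17.5-only regions, 235 (45.3%) were higher and 125 (24.1%) lower, with a median of 0.48. Of 1007 nearest to both-stage regions, 387 (38.4%) were higher and 261 (25.9%) lower, with a median of 0.24. Over the protein-coding genes tested, 32.3% were higher and 25.7% lower. Without the library that stood apart the E11.5-only shares were 32.3% and 49.0% the E17.5-only shares 50.4% and 30.0% and the both-stage shares 44.8% and 33.5%, beside 35.3% and 37.1% of all genes and 38.1% and 37.5% of protein-coding genes. Genes holding a region within them gave 71 higher and 89 lower of 229 for E11.5-only regions and 128 higher and 56 lower of 258 for E17.5-only regions. Those holding both-stage regions gave 232 higher and 96 lower of 475 (48.8% and 20.2%), close to the E17.5-only shares of 49.6% and 21.7%. Over all genes holding a distal region, 45.1% were higher and 24.1% lower. Without that library the shares were 34.8% and 47.4% for E11.5-only, 52.3% and 29.2% for E17.5-only and 53.1% and 27.2% for both-stage regions.

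**Figure D5:**
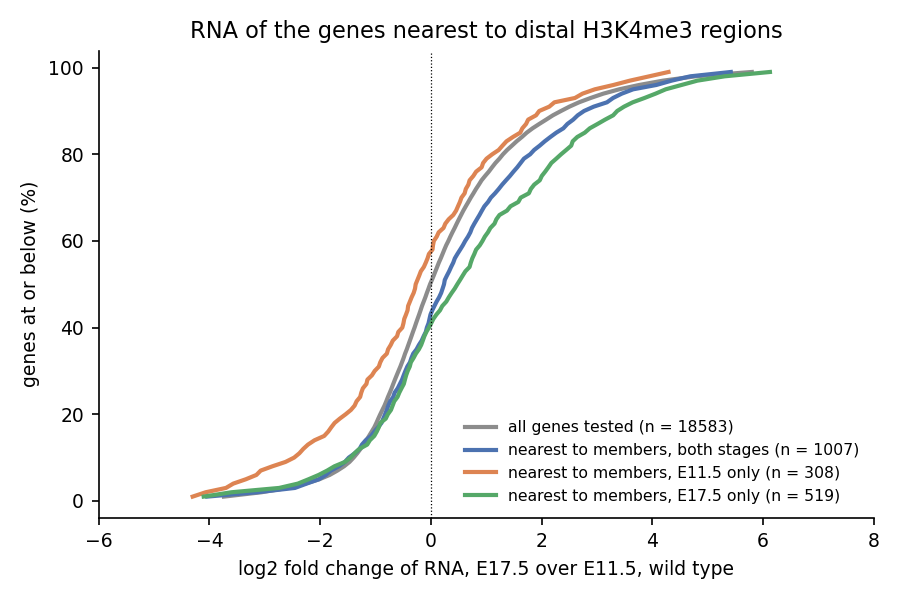
Cumulative percentage of genes (y) at or below a log2 fold change of wild type RNA, E17.5 over E11.5 (x), for all 18583 genes tested and for the genes nearest to distal regions of 3 stage classes. The line of the genes nearest to E11.5-only regions (n = 308, median -0.27) lies furthest left at its median, and that of the genes nearest to E17.5-only regions (n = 519, median 0.48) furthest right.

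Forebrain transcription factors near distal regions mostly fell, with 24 lower and 4 higher of 34, beside 36 lower and 12 higher of all 58 in the list. Without the library that stood apart these were 27 and 5, beside 40 and 13. Pax7, a regulator of the dorsal midbrain and caudal diencephalon, was nearest to 3 E11.5-only regions. It stood at 32.5, 36.4, 36.1 and 29.9 CPM at E11.5, then 4.17, 3.10, 2.16 and 1.49 at E17.5 (log2 change -3.63, SE 0.30, adjusted p = 4.49e-06), with no overlap. Irx5 and Otx1, homeobox genes of early brain regions, each had 2 E11.5-only regions and fell by 2.48 (SE 0.26) and 3.14 (SE 0.24) on the log2 scale. Isl1, a homeobox gene of hypothalamic and motor neurons, had 2 E17.5-only regions and a both-stage one, and rose from 1.53, 6.41, 3.17 and 5.56 to 46.1, 52.4, 51.7 and 55.04 CPM (log2 change 3.62, SE 0.38). Not every gene moved with its regions. Gata3, a zinc finger factor of midbrain and diencephalic GABAergic neurons, had 2 E17.5-only regions and fell by 1.28 (SE 0.21), and Meis1, with 2 E17.5-only regions and a both-stage one, fell by 1.99 (SE 0.18). Foxp2, with a single E11.5-only region, rose by 2.75 (SE 0.29).

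Of the 13 neuronal and synaptic genes near distal regions, 12 rose and 0 fell, beside 29 and 0 of all 30, with the same counts when that library was left out. Grin2b, a subunit of the NMDA receptor, was nearest to 2 E17.5-only regions. It stood at 7.91, 3.94, 9.93 and 6.09 CPM at E11.5, then 246, 744, 481 and 524 at E17.5 (log2 change 6.16, SE 0.43, adjusted p = 1.51e-06). Stmn2, a tubulin-binding protein of growing axons, had 2 E17.5-only regions and rose by 2.00 (SE 0.15). The exception was Auts2, at a log2 change of 0.08 (SE 0.16, adjusted p = 0.705). Of the genes of the strongest E17.5-only regions, Trank1 rose by 6.14 (SE 0.36), Tanc2 by 2.17 (SE 0.28) and Shank2 by 1.80 (SE 0.16) on the log2 scale. Adgrl2 had a change of 0.37 (SE 0.20, adjusted p = 0.141; 0.48, adjusted p = 0.00751 without the library that stood apart), and Tbx4 and Gm61616 were not among the genes tested. Of the genes of the strongest E11.5-only regions none fell with all libraries, Rai2 rose by 1.66 (SE 0.25) and Syt7, a calcium sensor of vesicle release, by 1.94 (SE 0.22). Nr2f2 (-0.36, adjusted p = 0.0657), Cyp4f16 (-0.28, adjusted p = 0.344) and Zfp184 (-0.59, adjusted p = 0.237) did not pass the test, and Skor2 was not among the genes tested. Without the library that stood apart Nr2f2 (-0.40, adjusted p = 0.00594) and Cyp4f16 (-0.53, adjusted p = 0.0145) were lower. Zfp184 then gave -0.30 and again did not pass the test (adjusted p = 0.220).

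Glial genes near distal regions rose in 6 of 7 and fell in 1, beside 17 and 1 of all 19 (18 and 1 without the library that stood apart, with 6 and 1 near distal regions). The gene that fell was Sox9, which also acts in progenitors and had 2 E11.5-only regions (log2 change -1.398, SE 0.28). Slc1a3, with 3 both-stage regions and an E17.5-only one, rose from 46.8, 51.7, 53.3 and 52.2 CPM to 253, 272, 223 and 245 (2.28, SE 0.16). Of the 5 progenitor and fetal timing genes near distal regions, 4 fell and none rose, beside 12 and 0 of all 13, and these counts were equal without that library. Hmga2, a chromatin protein of young progenitors with 2 both-stage regions and an E11.5-only one, fell from 204, 232, 222 and 232 CPM to 2.71, 3.64, 3.09 and 2.38 (-6.23, SE 0.22). Lin28b was the one that did not pass (-0.84, SE 0.48, adjusted p = 0.162). Of the 3 genes of other cell types, Col1a1 and Col1a2 fell and Dcn rose.

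Some genes had many distal regions, and these were picked after their values were seen. Gse1 had the most, with 13 regions, 7 of them E11.5-only and 5 both-stage. Msi2, an RNA-binding protein of neural progenitors, had 9, all of them E11.5-only and all within the gene. Its RNA was 332, 223, 460 and 352 CPM at E11.5, then 139, 275, 231 and 249 at E17.5, a change of -0.61 (SE 0.26) that did not pass the test (adjusted p = 0.0700), but did without the library that stood apart (-0.45, adjusted p = 0.0438). Notch1, the receptor that keeps neural progenitors from differentiating, had 7 regions, 6 of them E11.5-only, within a gene of 58 kb. Its RNA fell from 200, 247, 181 and 201 CPM to 51.7, 29.6, 22.1 and 25.4 (-2.69, SE 0.28, adjusted p = 1.88e-05). Bcor, a Polycomb-associated corepressor, had 9 regions, 8 of them both-stage, and fell by 1.01 (SE 0.18). Lmx1a, a roof plate and dopaminergic neuron factor, had 8, 4 of them E11.5-only, and fell by 2.10 (SE 0.18). Zfhx3 had 10, 5 of them both-stage, and rose by 1.12 (SE 0.19). Rapgef5 had 9, 6 of them E11.5-only, inside the neighbouring Ptprn2, and rose by 1.03 (SE 0.29), and Adgrl2 had 10, 5 of them E17.5-only, with a change of 0.37 (SE 0.20, adjusted p = 0.141). Regions of the same gene share a locus and are not separate observations of it.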

How the data were processed

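The authors aligned ChIP-seq reads with Bowtie2 2.4.2 to mm39, or for humanized samples to mm39 carrying the human hs754 sequence, removed multi-mapping and duplicate reads with Sambamba, and ran MACS2 2.2.7.1 on each replicate separately (versions from the submitters' processing notes, which also list deepTools 3.5.1). Each deposited list holds, per peak, its fold enrichment over local background (column 7) and the -log10 of its q-value (column 9). H3K4me3, H3K27ac and CTCF were called as narrow peaks and have a summit column. H3K27me3 peaks have none, and their calling mode is not given in the sources used here. Read depth is not in peak lists, so no interval is given for a share of regions. The authors counted RNA reads per gene with STAR 2.7.9a and GENCODE release 31, and deposited raw counts, used here from the column without strand, in which a gene and an antisense partner cannot be told apart. Between 48.1% and 55.3% of wild type reads were on no gene and were left out. The 24 input samples were not analysed here.

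Regions were merged over the 5 wild type H3K4me3 lists where peaks overlapped, and distances were taken to transcript starts of GENCODE release 39. Overlap with another mark needed at least 1 bp. The members and gene lists were chosen with earlier results of these data known. Shares were compared over lists with exact permutation tests (two-sided, 19 tests, Benjamini-Hochberg). Fold enrichment was tested with limma 3.58.1 and RNA counts with edgeR 4.0.16 (quasi-likelihood, TMM, filterByExpr; R 4.3.3), with DESeq2 1.42.0, the tool the study used, as an alternative. The p-values of RNA genes and of fold enrichment in the report are from these fits across all features. The 3 regions nearest above and below 5 kb, the widest 3 and the strongest 6 of each stage class, the genes nearest to them and the nearest genes in the gene lists (forebrain transcription factors, neuronal maturation and synapse, glia, progenitor and fetal timing, other cell types, tissue markers) could be named. Values of 1 gene of these lists and the sequence of 1 region are not reported here. Other alternatives were the overlap, the distance, stricter peaks, equal numbers of peaks, centring, the replicate block and leaving out each replicate. Windows of 500 bp and the tests against distal H3K27ac regions, by CpG island, between stage classes and of all members by stage were added after seeing the data, as was the comparison of members that carry H3K27ac. No 2 of the 150 pairs of lists compared were identical. On simulated data, 2-fold changes were called in 59.7% (H3K4me3), 86.6% (H3K27ac) and 13.4% (RNA) of cases, and 4-fold changes in 100%, 100% and 89.4%. Only 66 or 67 features were changed at each fold, among 18016, 12065 and 18583. The fits of the data called far larger shares (8.81%, 48.4% and 55.7%), and the adjusted p is stricter where few features change. The simulated rates therefore do not give the sensitivity of those fits. Scripts ran in Python 3.11.15 with numpy 2.4.6, pandas 2.3.3, matplotlib 3.10.9 and samtools 1.23.1.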

Additional observations from a re-analysis of the deposited data

Results flagged for a closer look

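Of 131 groups of samples tested, 16 had a sample far from the others, where chance gives about 1 in 20. Of the 88 RNA groups, 7 had one, and in 6 of these it was the first wild type E17.5 library, which also had the lowest rank correlation with its group. It stood at 52.1 CPM for Gbx2 (others 25.9 to 26.97), 24.3 for Otx1 (12.6 to 14.4), 15.5 for Irx5 (7.60 to 7.83) and 14.9 for Barhl2 (12.4 to 12.6). It was low for Lhx9, at 116 CPM (245 to 271), and for Lin28b, at 7.51 (38.6 to 44.4). Zfhx3 stood at 498 CPM in the second wild type E17.5 library (327 to 353 in the others).

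The third humanized E17.5 H3K27ac list, the shortest of its stage, was the lowest of the 6 E17.5 lists at each class of regions. At E17.5-only regions, where the gap was too small to be singled out, it gave 51.1% (others 63.4% to 71.1%). Its share was 53.1% at all distal regions (others 64.7% to 69.8%), 58.3% at both-stage (69.6% to 73.8%), 46.4% at E11.5-only (55.7% to 60%) and 45.7% at uneven regions (57.99% to 64.9%). It was 47.4% at regions with a CpG island (59.02% to 63.8%), 58.9% at those without (70.01% to 75.8%) and 72.6% near starts (79.3% to 82.1%). Leaving it out kept the direction and the call of the H3K27ac stage comparisons. The second wild type E11.5 H3K27ac list gave 46.6% at regions without a CpG island (49.6% to 49.9%), and the first wild type CTCF list gave 37.3% at uneven regions (30.5% to 32.9%).

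The stage effect differed between classes of distal regions. The change in H3K27ac from E11.5 to E17.5 at E11.5-only minus that at E17.5-only regions was -59.5 percentage points, and the same difference for H3K27me3 was 13.2 points, both with an exact permutation p of 0.00476 over 10 lists (adjusted p = 0.00696).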

How the results depend on the processing

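Of 112 alternatives of the comparisons that kept all replicates, 88 kept the direction and the call or, for counts of calls, a total within 1.5 times, whatever the split. Of those splits, that of H3K27ac turned without centring from 2284 higher and 3556 lower to 7325 and 680, that of H3K4me3 turned with the replicate block from 844 and 743 to 621 and 641, and RNA turned with all 16 samples in the fit from 5393 and 4963 to 6978 and 7125. When a peak had to cover at least 50% of a region, the differences between distal regions and those near starts reversed for H3K27ac (+5.59 points) and CTCF (+11.7), and for H3K27me3 the value was -3.49 (exact p = 0.0605). In 500-bp windows H3K27me3 gave -3.42 (exact p = 0.102). With peaks at a -log10 q of at least 5, H3K27me3 at E17.5-only regions changed by 0.53 points. The causes were not tested. In wild type lists alone, too few to pass 0.05, differences from regions near starts were -16.4 points (H3K27ac), -6.28 (H3K27me3) and -19.3 (CTCF). There the stage changes of H3K27ac were -7.46 (E11.5-only), 52.3 (E17.5-only) and 26.3 points (all), their class difference -59.7, and those of H3K27me3 were 23.3, 9.08 and 14.5 points, with a class difference of 14.2. Against distal H3K27ac regions the wild type differences were 23.4 (H3K27me3) and 25.05 points (CTCF), and by CpG island 26.6 (H3K27me3), -12.97 (H3K27ac) and 12.3 (CTCF). With 10 kb in place of 5 kb 1866 regions were distal, and with protein-coding starts only 6188 were. Without centring, 2482 regions in place of 1587 changed in H3K4me3.

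Leaving out each replicate in turn gave, against regions near starts, CTCF differences of -18.1 to -16.9 points, against distal H3K27ac regions 24.5 to 24.8 and by CpG island 11.6 to 12.2, all with 5 lists and so at an exact p of 0.0625 at best. Leaving out any of the 5 humanized lists moved the H3K4me3 calls of limma: to 0 without the first E11.5 list (3367 of 18367 regions at an unadjusted p under 0.05), 279 without the second, and 672, 643 and 682 without E17.5 replicate 1, 2 and 3. H3K27ac calls ranged from 5317 to 6027, RNA calls from 9147 to 13994, the last without the wild type E17.5 library that stood apart, and the number of members from 3070 to 3617. With the replicate number as a block, 1262 regions changed in H3K4me3, 5370 in H3K27ac and 9466 genes in RNA. ChIP-seq samples with the same number did not deviate together (correlations of -0.01 to 0.01). For RNA the correlations ran from -0.50 (replicate 2) to 0.35 (replicate 3). These do not settle whether RNA samples of a number belong together, and the main fits did not pair samples by number. Of 616 RNA values of 44 named genes, 600 kept their direction and call, 10 gained a call, 5 lost it and 1 reversed: Zc3h12c, -0.41 and not called, gave 0.00849 with all 16 samples. Peak lists hold no depth, so weak regions just under a list's threshold are not seen.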
